A study of Rattus norvegicus with 36 samples.

Results

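The genes described here are those of MHC class I antigen presentation in the rat: the class I heavy chains RT1-A1, RT1-A2 and RT1-S3, their light chain B2m, the peptide transporter subunits Tap1 and Tap2, the peptide-loading chaperone Tapbp, the immunoproteasome subunits Psmb8 and Psmb9, and the regulator Nlrc5. They were chosen by gene symbol. Of the 10 genes named, 9 had a row in a table of 20603 rows, and all 9 had a median of at least 10 over the columns, as did 15837 rows in all. Tap2 is not analysed here.

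In the study, RNA was extracted from the hippocampus of 36 female rats and sequenced, with 6 animals in each of 6 groups: regularly cycling animals at 6 months (Reg6m) and at 9 months (Reg9m), irregularly cycling animals at 9 months (Irreg9m), acyclic animals at 9 months (Acyc9m) and at 16 months (Acyc16m), and animals whose ovaries were removed at 9 months and which were sampled at 10 months (RegOVX10m). The table holds 36 columns, named hippo1 to hippo36, and no column could be tied to 1 animal or to 1 of the 6 groups. The columns were therefore treated as 1 ungrouped set of hippocampus samples, no comparison between ages, cycle states or surgery was made, and a correlation across columns mixes variation within and between the 6 groups, which cannot be told apart here. Values are the authors' normalized counts per gene, which were not divided by gene length, so levels are compared between columns and not between genes.

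MHC class I molecules carry short peptides from proteins made inside the cell to its surface, where CD8 T cells and natural killer cells read them. The peptides are cut by the proteasome, moved into the endoplasmic reticulum by the TAP transporter and loaded onto the heavy chain and B2m while tapasin (Tapbp) holds the complex at the transporter. Interferons raise most genes of this pathway, and Nlrc5 acts on their promoters through the factors bound at the conserved W/S, X and Y boxes. In the brain, class I genes are expressed in microglia and endothelium and also in neurons, where they have been linked to synaptic plasticity. In bulk tissue, fewer cells of a type and less RNA per cell cannot be told apart.

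RT1-A1 and RT1-A2 lie next to each other on rat chromosome 20 in the RefSeq gene order, and Tap2, Psmb8, Tap1 and Psmb9 follow each other on the same chromosome with no other protein-coding gene between them. RT1-S3 and Tapbp are also on chromosome 20, whereas B2m is on chromosome 3 and Nlrc5 on chromosome 19. Promoter windows of 250 bases before the annotated start were read from RefSeq, build GRCr8, in which 9 of the 10 genes had an entry. The windows of 4 genes are shown because the clearest patterns below concern RT1-A1, RT1-A2, RT1-S3 and B2m. Capitals mark matches, on either strand, to enhancer A (GGGGA and TCCC with any 1 base between them, bound by NF-kB and Rel factors), to the core of the interferon-stimulated response element (TTTC and TTTC with any 2 bases between them), to the cyclic AMP response element within the X box, called X2 (TGACG), and to the Y box (ATTGG). The reference strand is plus for all 4 windows, at chr20:4906959-4907208 for RT1-A1, chr20:4872621-4872870 for RT1-A2, chr20:2675278-2675527 for RT1-S3 and chr3:129549080-129549329 for B2m.
RT1-A1: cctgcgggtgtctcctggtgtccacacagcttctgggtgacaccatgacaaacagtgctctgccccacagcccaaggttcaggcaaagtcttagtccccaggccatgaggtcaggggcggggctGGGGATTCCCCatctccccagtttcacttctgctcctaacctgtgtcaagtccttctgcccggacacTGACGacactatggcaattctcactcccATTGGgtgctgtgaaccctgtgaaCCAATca
RT1-A2: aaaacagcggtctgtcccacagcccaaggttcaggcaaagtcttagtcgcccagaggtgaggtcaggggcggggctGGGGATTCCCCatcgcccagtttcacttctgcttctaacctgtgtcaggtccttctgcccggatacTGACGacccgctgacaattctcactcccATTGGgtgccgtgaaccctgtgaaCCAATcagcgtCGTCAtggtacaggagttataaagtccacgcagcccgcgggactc
RT1-S3: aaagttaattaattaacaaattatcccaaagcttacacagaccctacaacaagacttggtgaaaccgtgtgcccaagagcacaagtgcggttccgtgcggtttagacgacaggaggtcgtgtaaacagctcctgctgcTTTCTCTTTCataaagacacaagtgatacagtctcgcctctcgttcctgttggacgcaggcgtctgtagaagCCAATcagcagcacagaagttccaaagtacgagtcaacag
B2m: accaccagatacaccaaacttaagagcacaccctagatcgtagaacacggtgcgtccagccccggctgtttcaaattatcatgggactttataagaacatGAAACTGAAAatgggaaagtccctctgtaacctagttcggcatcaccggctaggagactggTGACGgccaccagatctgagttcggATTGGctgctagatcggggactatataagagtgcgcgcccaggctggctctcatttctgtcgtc

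The RT1-A1 and RT1-A2 windows matched at 182 of 202 aligned positions (90.1%). Both held enhancer A, followed by X2 and Y matches, and the same stretch began 126 bases before the annotated start of RT1-A1 and 174 bases before that of RT1-A2. Because enhancer A is nearly symmetric, its matches on the 2 strands overlapped. Among the windows of all 27457 genes in the table, 0.237% held the enhancer A letters. RT1-S3 and B2m had no enhancer A match in their windows and each had 1 match to the interferon response core, as did Tap1 and Tap2, while Tapbp had 2 overlapping matches. That core was found in 3.29% of all windows. X2 letters were present in RT1-A1, RT1-A2, B2m and Psmb9 (19% of all windows), and Y letters in RT1-A1, RT1-A2, RT1-S3, B2m and Psmb8 (34.3% of all windows). Tap1 and Psmb9 start in opposite directions 456 bases apart, and their windows share 44 bases. A match describes letters in the window and does not show that a factor binds there. Exact matches alone were searched for, so the lack of a match does not exclude a near match to the same element.

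The columns were of even size, with totals of 34455978 to 35985904 normalized counts. Column hippo30 stood apart in its share of rows at 0, 12.7% against at most 10.3% elsewhere, and in its most frequent small value, 1.96 against at most 1.08. Its raw depth is unknown, as for all columns. Column hippo17 had the lowest median correlation with the other columns (0.989), the highest summed markers of oligodendrocytes (298364 against a median of 154214), endothelium, blood and astrocytes, and the lowest summed markers of neurons. For the relations of RT1-A1, RT1-S3, B2m and Tapbp, values without hippo17, and for some also without hippo30, are given beside them. All 5 hippocampal field markers (Prox1, Neurod6, Zbtb20, Fibcd1 and Wfs1) had values above 0 in every column. Whether the columns come from separate animals rests on the labels alone, and no 2 columns were identical.

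The heavy chains differed in how much they varied. RT1-A1, a classical class I heavy chain that presents peptides to CD8 T cells, ranged from 309 in hippo21 through a median of 524 to 811 in hippo10, a ratio of 2.62. Its values formed a continuous series, with no gap above 0.10 on the log2 scale once at least 3 columns were required on either side. RT1-S3, a non-classical heavy chain, ranged from 767 in hippo27 through a median of 909 to 1175 in hippo17, a ratio of 1.53.

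RT1-A2, the neighbouring classical heavy chain, ranged from 235 in hippo16 through a median of 640 to 893 in hippo14. These columns fell into 2 ranges that did not touch. In 15 columns RT1-A2 was between 235 and 385, and in the other 21 it was between 616 and 893, with a gap of 0.68 on the log2 scale between the ranges. No column was at or near 0. The log2 span from lowest to highest column was wider than that of 99.5% of 4850 genes of similar level. An on-off gene was defined by a largest gap of at least 2 on the log2 scale with at least 3 columns on either side, and 0 of the 9 genes met this rule, against 0.139% of all genes tested (0.0442% with a pseudocount of 5 and 0.133% without hippo30, again with 0 of the 9). With a gap of at least 1, 0 genes met it (0.208% of all genes). With a gap of at least 0.5, a value chosen after RT1-A2 had been seen, RT1-A2 alone of the 9 met it (0.562% of all genes). The gap was 0.67 both with a pseudocount of 5 and after rescaling every column to the same total, and 0.68 without hippo30, with 15 columns below it each time.

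**Figure D1:**
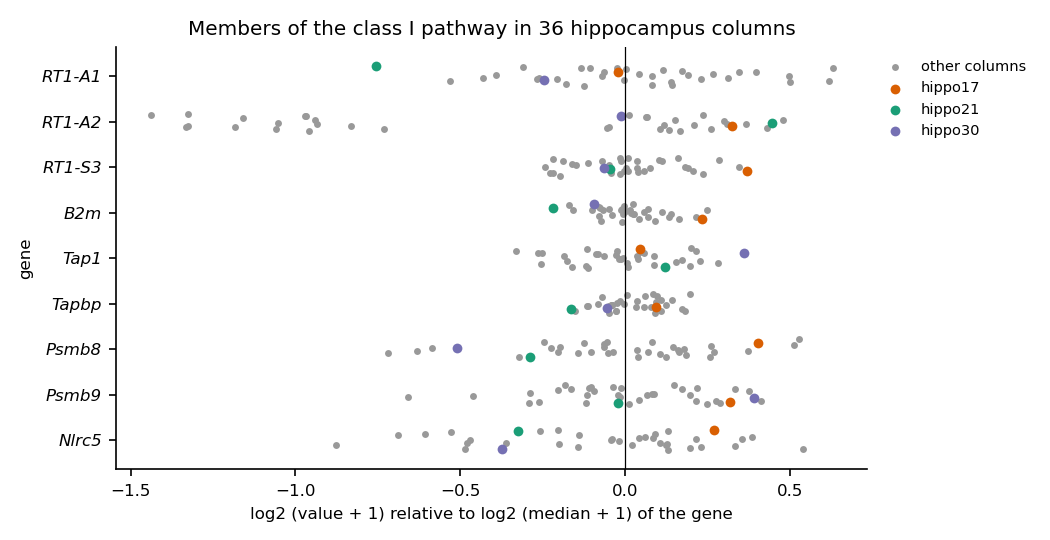
Values of the 9 genes in 36 hippocampus columns. The x axis gives log2 (value + 1) minus log2 (median + 1) of the gene, each point is 1 column, vertical scatter within a gene carries no meaning, and colours mark hippo17, hippo21 and hippo30. RT1-A2 is the gene whose points form 2 separate ranges, with 15 columns on the left and 21 on the right.

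RT1-A1 and RT1-A2 did not take their extremes in the same columns. In hippo10, where RT1-A1 was at its highest (811), RT1-A2 was at 281, in its lower range. In hippo21, where RT1-A1 was at its lowest (309), RT1-A2 was at 872, near its top. In hippo14 the 2 genes were at 388 and 893, and in hippo16 at 578 and 235. The sum of both ran from 752 in hippo27 through a median of 1099 to 1392 in hippo35, a ratio of 1.85. This ratio is smaller than that of either gene, which can also occur for 2 unrelated genes, so no relation is read from it. Apart from hippo1 (487) and hippo27 (498), RT1-A1 was at least 577 in the columns of the lower RT1-A2 range. It was at most 567 in those of the upper range, and this difference was not tested. Because the columns of RT1-A2 form separate ranges, no correlation over all columns is given for it. Within the 15 lower columns its Pearson r with RT1-A1 was 0.204 (Spearman rho 0.264, permutation p = 0.461), and within the 21 upper columns it was -0.082 (rho 0.140, permutation p = 0.725). Without the 2 columns farthest from the median of RT1-A2, these were 0.236 and 0.408. Over the 18 relations computed within the ranges (the other 8 genes and RT1-CE16, in each range), the smallest p after Benjamini-Hochberg adjustment was 0.544. The closest relation by its raw p was with Psmb8 in the upper range (r 0.443, rho 0.491, permutation p = 0.0445 before adjustment).

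**Figure D2:**
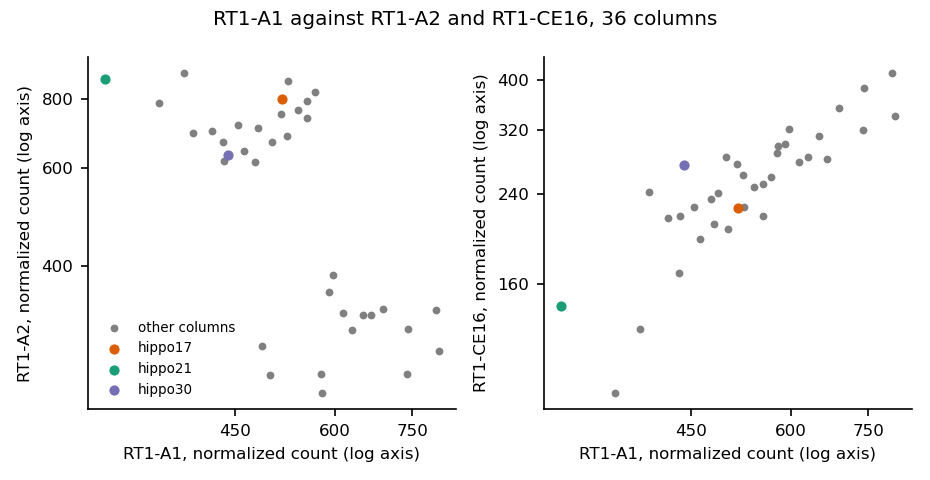
RT1-A1 (x axes) against RT1-A2 (left) and RT1-CE16 (right), in normalized counts on log axes, 1 point per column and 36 columns in each panel. The left panel shows the 15 columns of the lower RT1-A2 range below the 21 of the upper range. The right panel has an r of 0.850 over all 36 columns, which spans both RT1-A2 ranges.

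The RT1 class I genes are similar in sequence, and how the authors' counting assigned reads shared by several copies is not stated in the labels, so the level of a single RT1 row is uncertain. Among 27 class I RT1 rows, 22 passed the filter on low values, and 3 of these (13.6%) had a gap of at least 0.5, against the 0.562% of all genes given above. Besides RT1-A2 they were RT1-M6-2 and RT1-N1, both non-classical class I genes. The gap of 0.5 was chosen after RT1-A2 had been seen, so RT1-A2 was bound to be counted. The 13.6% is therefore no test of whether class I rows differ from other genes. RT1-M6-2 was between 58.1 and 92.4 in 18 columns and between 159 and 349 in the other 18. RT1-N1 was between 0.502 and 224 in 14 columns, with hippo2 at 0.502 and the next lowest, hippo30, at 170.0, and between 360 and 445 in 22. The lower columns of RT1-A2 overlapped with those of RT1-M6-2 in 6 columns, which is 40.0% of the first and 33.3% of the second, and with those of RT1-N1 in 8, which is 53.3% and 57.1%. No column was in the lower range of both RT1-M6-2 and RT1-N1. Of all 36 columns, 15 were in the lower range of RT1-A2, 18 in that of RT1-M6-2 and 14 in that of RT1-N1. Whether any overlap differs from what these shares alone would give was not tested. A value of 0 in at least 1 column occurred in 4 of the 27 rows, all of them below the filter.

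**Figure D3:**
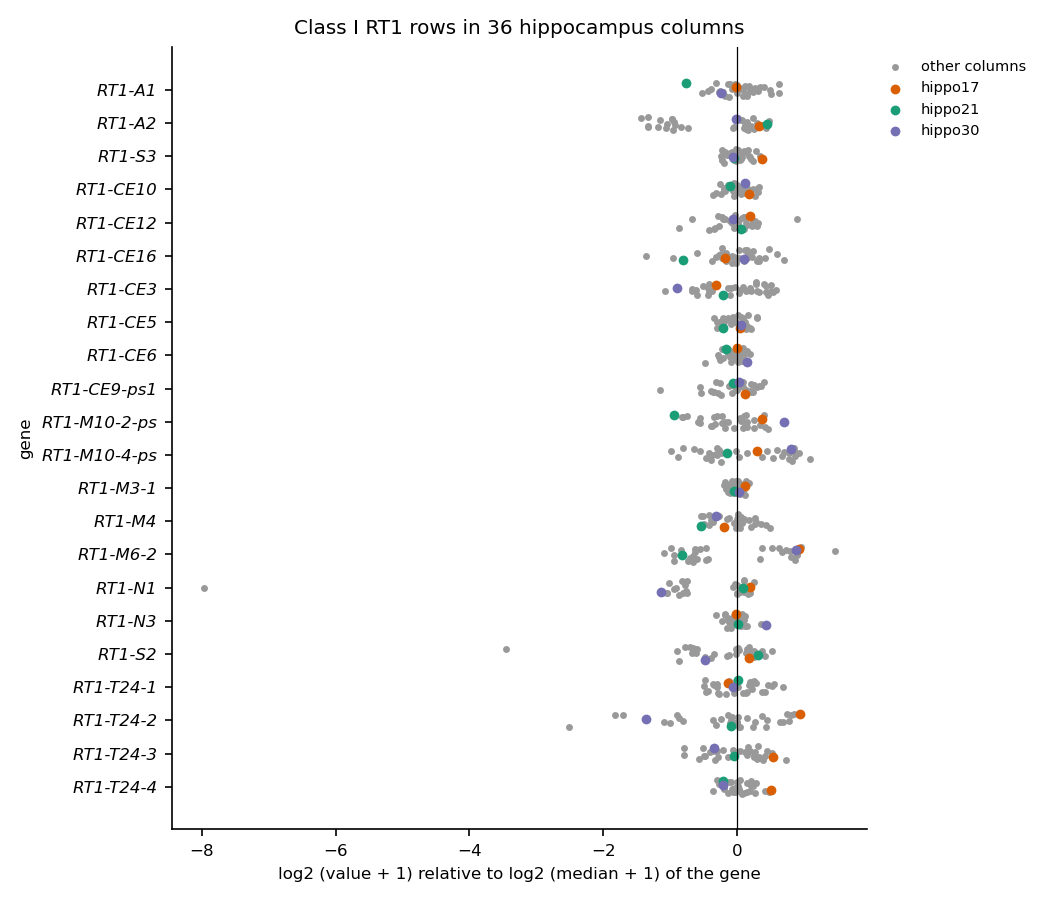
The 22 class I RT1 rows that passed the filter, in 36 columns, as log2 (value + 1) minus log2 (median + 1) of each gene, 1 point per column with random vertical scatter. RT1-A2, RT1-M6-2 and RT1-N1 show separate ranges of points, and the point at the far left is RT1-N1 in hippo2, at 0.502.

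B2m, the light chain shared by all class I molecules, was the least variable of the chains. It ranged from 7629 in hippo21 through a median of 8872 to 10528 in hippo28, a ratio of 1.38. The loading genes spanned different ranges. Tap1, a subunit of the peptide transporter, ranged from 185 in hippo14 through a median of 233 to 299 in hippo30, a ratio of 1.62. Tapbp was nearly level, from 543 in hippo21 through a median of 608 to 698 in hippo7, a ratio of 1.29.

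The immunoproteasome subunits Psmb8 and Psmb9 replace constitutive catalytic subunits of the proteasome in cells exposed to interferon. Psmb8 ranged from 102 in hippo28 through a median of 169 to 243 in hippo10, a ratio of 2.38. Psmb9 ranged from 66.4 in hippo23 through a median of 105 to 141 in hippo20, a ratio of 2.12. Nlrc5, the class I transactivator, ranged from 23.1 in hippo4 through a median of 43.4 to 63.5 in hippo28, a ratio of 2.74. Column hippo28 thus had the highest B2m and Nlrc5 and the lowest Psmb8. Column hippo21 had the lowest value of RT1-A1, B2m and Tapbp, and hippo30, the column with the largest share of rows at 0, had the highest Tap1.

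Correlation was computed on log2 (value + 1) over all 36 columns for the 8 genes other than RT1-A2, which gives 28 pairs. Permutation p-values were adjusted by Benjamini-Hochberg over all 15836 other genes tested against the same gene, and a pair counted as passing when the larger of its 2 adjusted p-values was below 0.05. The genes passing for each partner gene made up between 0% (Tap1, Psmb8, Psmb9 and Nlrc5) and 6.35% (B2m) of those tested. By this rule 0 of 28 pairs passed, also with limma, and 7 pairs had a permutation p below 0.05 before adjustment. The median r of the pairs was 0.106, the range was -0.169 to 0.483, and 21 of 28 were above 0.

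The highest values joined RT1-S3 and RT1-A1 to B2m, and RT1-A1 to Tapbp. RT1-S3 and Tapbp had a lower r of 0.357, and the heavy chain RT1-A2 is not among the pairs. RT1-S3 and B2m had an r of 0.483 (rho 0.416, permutation p = 0.00306, larger adjusted p = 0.11). RT1-A1 and B2m had an r of 0.478 (rho 0.359, permutation p = 0.00313, larger adjusted p = 0.374). Counted among the genes tested against B2m alone, both heavy chains were just past the threshold, RT1-S3 at an adjusted p of 0.0494 and RT1-A1 at 0.0496, where 6.35% of all genes passed. Neither passed there without hippo17, at adjusted p-values of 0.21 and 0.0734, with r of 0.404 for RT1-S3 and 0.519 for RT1-A1. RT1-A1 and Tapbp had an r of 0.458 (rho 0.408, permutation p = 0.00482, larger adjusted p = 0.429). The regulator Nlrc5 had an r of 0.422 with B2m, 0.367 with RT1-S3 and 0.320 with RT1-A1, with larger adjusted p-values of 0.456, 0.503 and 0.58.

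The chromosome neighbours Tap1, Psmb8 and Psmb9 did not stand out among the pairs. RT1-A1 and RT1-A2 are neighbours too, but RT1-A2 is not among the pairs. Tap1 and Psmb9, whose promoter windows overlap, had an r of 0.209 (rho 0.307, permutation p = 0.222). Tap1 and Psmb8 had an r of -0.167 (rho -0.144, permutation p = 0.331). The 2 immunoproteasome subunits had an r of -0.087 with each other (rho -0.096, permutation p = 0.612). Without the 2 columns farthest from the median of either gene, r of RT1-S3 and B2m was 0.426 and 0.314, and that of RT1-A1 and B2m was 0.369 and 0.468.

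**Figure D4:**
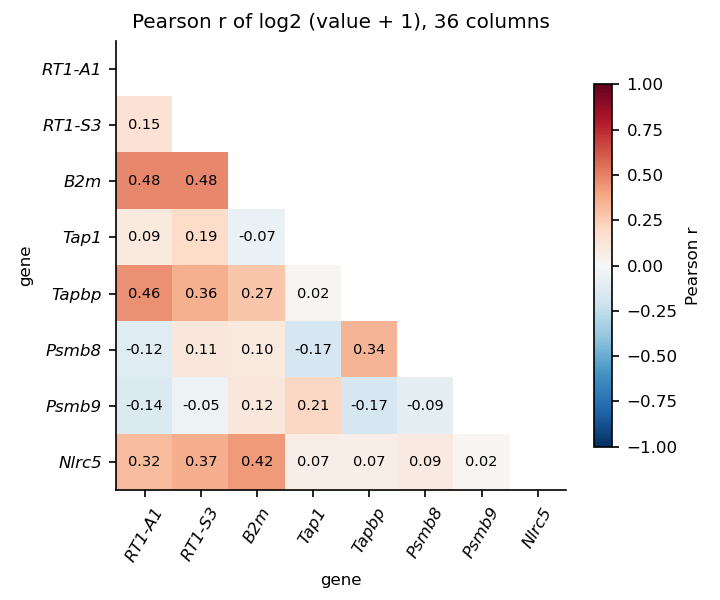
Pearson r of log2 (value + 1) across 36 columns for each of the 28 pairs of 8 genes, with RT1-A2 left out. Colours run from -1 (blue) to 1 (red), and the darkest cells are those of B2m with RT1-A1 (0.48) and RT1-S3 (0.48).

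The number of genes that followed each member differed widely. A gene followed a member when its permutation p, adjusted over all 15836 genes, was below 0.05. B2m was followed by 1005 genes (6.35%), 502 in the same (3.17%) and 503 in the opposite direction (3.18%). Tapbp was followed by 498 (3.14%), of which 117 were in the same (0.739%) and 381 in the opposite direction (2.41%). RT1-S3 was followed by 74 (0.467%), 29 in the same (0.183%) and 45 in the opposite direction (0.284%). RT1-A1 was followed by 4 (0.0253%), 2 in either direction (0.0126% each). For Tap1, Psmb8, Psmb9 and Nlrc5 the count was 0, although 1085, 1415, 581 and 1471 genes had a permutation p below 0.05 before adjustment. Limma's moderated test gave 930 genes for B2m, 487 for Tapbp, 53 for RT1-S3, 3 for RT1-A1, 0 for Tap1, Psmb8 and Psmb9, and 2 for Nlrc5.

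These counts depended on single columns and on scaling. Without hippo17 the count for B2m was 206 by permutation (148 in the same and 58 in the opposite direction) and 165 by limma, and that for RT1-S3 was 0 and 6. After every column was rescaled to the same total, B2m was followed by 385 genes in the same and 740 in the opposite direction, and RT1-S3 by 9 and 26. The count for RT1-A1 was 0 without hippo17 and also without hippo30, where limma gave 3 and 4. A permutation p cannot go below 1e-05, so a few genes alone cannot pass over all genes. The count of 0 for RT1-A1 therefore does not show that its relations rest on those columns. For Tapbp the count was 0 after that rescaling, 0 after the first principal component of all genes was taken out, and 283 without hippo30.

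RT1-A1 was most like RT1-CE16, another class I heavy chain gene, with an r of 0.850 (rho 0.860, permutation p = 1e-05, the smallest that 100000 permutations can give). RT1-CE16 ranged from 98.3 through a median of 255 to 413. Apart from hippo1 (241.5), it was at least 278 in the lower RT1-A2 columns and at most 274 in the upper ones. The r of RT1-A1 and RT1-CE16 therefore spans both RT1-A2 ranges, and their r within either range was not computed. Over all columns the adjusted p was 0.0396 by permutation and 2.59e-07 by limma. Without the 2 columns farthest from the median of RT1-A1 r was 0.834. By permutation the call was lost with the first principal component taken out (r 0.864, adjusted p = 0.0528), without hippo30 (r 0.870, adjusted p = 0.0528) and without hippo17 (r 0.850, adjusted p = 0.0633), while limma's adjusted p was 5.29e-08 without hippo30 and 4.86e-07 without hippo17. Next came LOC683761, a locus with no gene name (r 0.787, rho 0.705, adjusted p = 0.0396, and by permutation 0.0633 without hippo17 and 0.0528 without hippo30), and Myl12a, a myosin light chain (r 0.617, rho 0.545), which did not pass (adjusted p = 0.204). Of 24 other class I genes that passed the filter, RT1-CE16 was the one that followed RT1-A1. The median r of the 24 was 0.046 against -0.003 over all genes. As RT1-A1 and RT1-CE16 may share reads, what part counting has in their relation was not tested.

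RT1-S3 was most like 3 genes of the RT1-T24 group, which are non-classical class I genes. Its r was 0.807 with RT1-T24-3 (rho 0.811, adjusted p = 0.0226), 0.790 with RT1-T24-2 (rho 0.851, adjusted p = 0.0226) and 0.724 with RT1-T24-4 (rho 0.653, adjusted p = 0.0226). RT1-T24-2 had the widest range of these, from 7.61 through a median of 48.3 to 93.8. Of the 24 other class I genes 4 followed RT1-S3, the 3 named and RT1-S2 (r 0.598, adjusted p = 0.0302), all in the same direction, against 0.183% of all genes. Without hippo17 the permutation test passed 0 of them, while r was 0.796, 0.780 and 0.676 for the 3 RT1-T24 genes and limma's adjusted p-values were 6.83e-05, 0.000106 and 0.0168. These rows too may share reads, which was not tested. RT1-S2 was at most 101 in the lower RT1-N1 columns and at least 115 in the upper ones. Apart from hippo16 (958) and hippo24 (931), RT1-S3 was at most 877.5 in the lower columns and at least 880 in the upper. Apart from hippo4 (53.4), hippo16 (43.6) and hippo24 (48.3), RT1-T24-2 was at most 38.5 in the lower columns and at least 40.8 in the upper. Apart from hippo16 (217.7), hippo24 (236.7) and hippo34 (163.4), RT1-T24-3 was at most 171.6 in the lower columns and at least 173.5 in the upper. RT1-T24-4 had widely overlapping values in the lower and upper columns. The r values of RT1-S3 with these genes span both RT1-N1 ranges, and r within either range was not computed.

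B2m was most like Parp14 (r 0.779, rho 0.737), Parp9 (r 0.771, rho 0.777) and Aif1 (r 0.771, rho 0.810), each with an adjusted p of 0.00278. Parp14 and Parp9 are ADP-ribosyltransferase family genes induced by interferon, and Aif1 encodes Iba1, a marker of microglia. Aif1 ranged from 366 in hippo30 through a median of 461 to 577 in hippo28, the column with the highest B2m. Without hippo17, r with Parp14, Parp9 and Aif1 was 0.749, 0.767 and 0.751, each with an adjusted p of 0.0072.

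Of 16 interferon response genes, 9 followed B2m in the same direction and 0 in the opposite, against 3.17% and 3.18% of all genes, and their median r was 0.50 against -0.002 over all genes. They were Irf7, Isg15, Oas1a, Usp18, Gbp2, Igtp, Irgm, Ifitm3 and Rsad2, which encode antiviral effectors, interferon-induced GTPases and a transcription factor of the response. Rsad2, which encodes the antiviral protein viperin, had the highest r of these (0.636, adjusted p = 0.00475), followed by Oas1a, a sensor of double-stranded RNA (0.606, adjusted p = 0.00787). Mx1, another interferon-induced GTPase, had an r of -0.221 and did not pass (adjusted p = 0.472). Ifit2, Ifit3, Mx2, Bst2, Gbp5 and Ifi27 also did not pass, with r of 0.429, 0.274, 0.108, 0.370, 0.385 and 0.263. Leaving out hippo17 gave 3 of 16 by permutation and 4 by limma, with a median r of 0.47. Leaving out the 2 columns farthest from the median of B2m gave 0 of 16, where 0.783% of all genes passed against 6.35% over all columns. The median r of the 16 was then 0.45, so the calls were lost while the median r changed little. Taking out the first principal component gave 5 of 16.

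**Figure D5:**
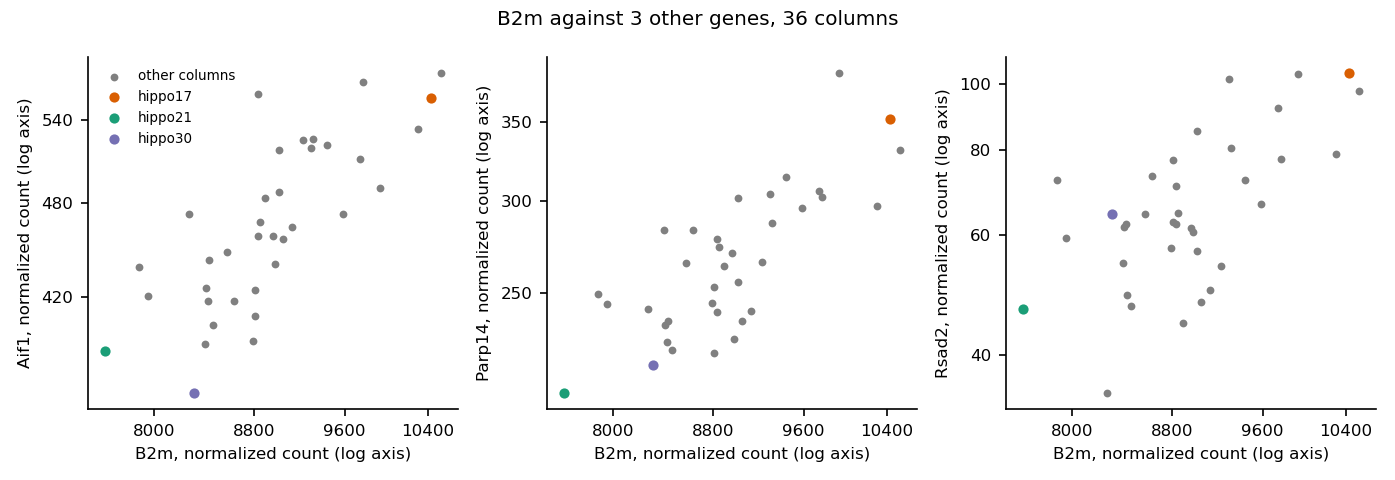
B2m (x axes) against Aif1, Parp14 and Rsad2 in normalized counts on log axes, 1 point per column and 36 columns in each panel, with hippo17, hippo21 and hippo30 in colour. The 3 genes rise along B2m with r of 0.771, 0.779 and 0.636, with hippo17 near the upper end and hippo21 at the lowest B2m value.

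Of 12 partners of the class I pathway, 1 followed B2m, the proteasome activator subunit Psme1 (r 0.540, adjusted p = 0.024). The chaperones of the endoplasmic reticulum Calr, Canx, Pdia3 and Hspa5 did not pass, with r of -0.382, 0.006, -0.083 and -0.300. Among the regulators, the X box and Y box factors Rfx5, Rfxap, Rfxank, Nfya, Nfyb and Nfyc did not pass with B2m, with r between -0.245 and -0.063. Psme1 did not pass without hippo17 (adjusted p = 0.0732). No partner, regulator or class II gene followed RT1-A1, RT1-S3, Tap1, Psmb8, Psmb9 or Nlrc5. RT1-T24-3 and RT1-T24-4, both class I genes, also followed B2m (r 0.528 and 0.647, adjusted p = 0.026 and 0.00537), which makes 2 of 24 other class I genes against 6.35% of all genes. Without hippo17 RT1-T24-3 did not pass (r 0.488, adjusted p = 0.0986) and RT1-T24-4 did (r 0.592, adjusted p = 0.0278). The count was 1 of 24 with the first principal component taken out and 0 without the 2 columns farthest from the median of B2m.

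RT1-S3 was followed by 3 of the 16 interferon response genes, Irf7, Irgm and Rsad2 (r 0.611, 0.631 and 0.594), all in the same direction, against 0.183% of all genes. The median r of the 16 was 0.49 against 0.00 over all genes. Without hippo17 the count was 0 by permutation and by limma, with a median r of 0.46. For Tapbp, 0 of 16 passed, with a median r of 0.29 against 0.01 over all genes. Whether the interferon genes were closer to B2m than to RT1-S3 was not tested.

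Markers of cell types moved with some of these genes. Over 80 relations between a member and the log2 summed markers of 1 of 10 cell types or regions, 5 passed after Benjamini-Hochberg adjustment over the 80. B2m rose with the summed endothelial markers (r 0.599, rho 0.676, permutation p = 0.0001, adjusted p = 0.0048) and with the astrocyte markers (r 0.613, rho 0.648, permutation p = 0.00012, adjusted p = 0.0048). RT1-S3 rose with the same lists (r 0.572, rho 0.466, adjusted p = 0.00667 for endothelium by permutation, and r 0.521, rho 0.372, adjusted p = 0.0242 for astrocytes). The endothelial sum ran from 4554 in hippo7 through a median of 5054 to 7148 in hippo17, and the astrocyte sum from 60175 in hippo2 through 68176 to 81954 in hippo17. Without the 2 columns farthest from the median of the marker sum, r was 0.535 and 0.590 for B2m and 0.414 and 0.341 for RT1-S3. Without hippo17, which had both highest sums, 3 of the 80 relations passed by permutation. B2m passed with the endothelial (r 0.518, adjusted p = 0.0437) and astrocyte markers (r 0.555, adjusted p = 0.0248), and RT1-S3 passed with neither (r 0.465 and 0.442, adjusted p = 0.0577 and 0.0806).

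Taken gene by gene, B2m was followed in the same direction by 2 of 4 endothelial markers, Cldn5 and Tek (r 0.630 and 0.478), and by 2 of 4 astrocyte markers, Aqp4 and Slc1a3 (r 0.585 and 0.574). It was followed in the opposite direction by 1 of 4 neuron markers, the synaptic vesicle gene Syt1 (r -0.512, adjusted p = 0.0339), by 1 of 5 hippocampal field markers, Fibcd1 (r -0.531, adjusted p = 0.0271), and by 1 of 5 leptomeningeal markers, the proteoglycan gene Dcn (r -0.542, adjusted p = 0.0227). In the same and opposite directions, 3.17% and 3.18% of all genes passed. Without hippo17, which had the lowest values of Syt1, Fibcd1 and Dcn, Cldn5 was the one of these 7 genes that passed (r 0.559, adjusted p = 0.045). RT1-S3 was followed by 1 endothelial marker, Cldn5 (r 0.581, adjusted p = 0.0491), which did not pass without hippo17 (r 0.479, adjusted p = 0.378).

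The microglial sum had an r of 0.396 with B2m (rho 0.522, permutation p = 0.0169) and did not pass (adjusted p = 0.123). Its lowest value, 8924, was in hippo17, and without that column the relation passed (r 0.599, rho 0.648, permutation p = 9e-05, adjusted p = 0.0072). Without its 2 farthest columns r was 0.622. Of the 8 microglial markers, Aif1 was the one that followed B2m. Among T cell and natural killer cell markers, 8 of 9 genes were at 0 in some column and 0 of 9 in all, and Cd8b and Nkg7 were at 0 in 22 columns each. The part of these cell types in the relations of B2m and RT1-S3 was not tested.

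Tapbp was followed by 3 of 5 class II genes, which present peptides from outside the cell to CD4 T cells: RT1-Ba (r 0.547, adjusted p = 0.0366), RT1-Bb (r 0.526, adjusted p = 0.0407) and the invariant chain Cd74 (r 0.506, adjusted p = 0.0453). In the same direction, 0.739% of all genes passed. The class II genes varied far more than Tapbp. Their sum ran from 266 in hippo21 through a median of 952 to 3533 in hippo34. All 3 lost the call after rescaling to a common total and after the first principal component was taken out, with a median r of the list of 0.50 and 0.40. Without hippo30 the count was 4 of 5, and without hippo17 it was 2 of 5. Tapbp also rose with the summed choroid plexus markers (r 0.468, rho 0.527, permutation p = 0.00268, adjusted p = 0.0429), which ran from 53.5 in hippo1 through a median of 106 to 1965 in hippo8, and the part of that tissue was not tested. That relation did not pass without hippo17 (r 0.457, permutation adjusted p = 0.0577). Its 3 most alike genes were LOC686013, Arl2 and Lamp1 (r 0.683, 0.667 and 0.635, each with an adjusted p of 0.0284). Arl2 encodes a small GTPase and Lamp1 a protein of the lysosomal membrane. With totals made equal, r of LOC686013, Arl2 and Lamp1 was 0.663, 0.632 and 0.592 and none passed (adjusted p = 0.0762 each). With the first principal component taken out, r was 0.584, 0.421 and 0.239 and none passed (adjusted p = 0.999 each).

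For Nlrc5, the genes most alike were Slc20a1, a phosphate transporter (r 0.700, rho 0.782), Skap2, an adaptor protein (r 0.679, rho 0.691), and Tep1, a telomerase-associated protein (r 0.652, rho 0.570). Each had an adjusted p of 0.0528 by permutation, just short of the threshold, while limma gave 0.0396, 0.0396 and 0.0963. For Tap1 they were Parp8, Nfyc and Poldip3, with r between 0.559 and 0.648. Nfyc encodes a subunit of the Y box factor. For Psmb8 they were Jaml, Zfp422 and Plpp1 (0.592 to 0.6004), and for Psmb9 Sh2d3c, Lrrc56 and Hfe2 (0.567 to 0.580). None of these 9 genes passed.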

How the data were processed

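Total RNA from hippocampus of 36 female rats was sequenced by the authors, with 6 animals per labelled group. Per the submitters' processing notes, kallisto 0.43 and DESeq2 were used, with no role given. The transcript reference behind the values is not given in the sources. The authors' deposited file holds a normalized count signal per gene, not whole numbers, in 36 columns; raw depth is unknown, and 12.5% of the 20603 rows had no gene symbol. Column names give the tissue and a running number, so columns were assigned to the tissue as 1 set and to no animal or labelled group. This assignment was made knowing the column names.

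The genes and gene lists were chosen with earlier results of these data known. Values were taken as log2 (value + 1), and genes with a median of at least 10 were tested. Pearson r was tested by 2-sided permutation of the columns (100000 resamples) and adjusted by Benjamini-Hochberg over all genes tested. Permutation p cannot go below 1e-05, so limma 3.58.1 (R 4.3.3) was added as an alternative. Genes named were the members, the lists, and the 3 genes with the highest r for each member. By the planned gap rule RT1-A2 was not on-off and would have had an r over all columns; it was withheld after its separate ranges were seen. The rule for pairs was set after the r values had been seen. The gap of 0.5, r within ranges, the limma fits and the fits without hippo17 or hippo30 were added after seeing the data. Values of other genes by range were also added then. Other alternatives were a pseudocount of 5, column totals or median ratios made equal, a median of at least 50, the first principal component (8.28% of variance) taken out, and the 2 farthest columns left out. Only the correlation test was tried on simulated data. There, genes varied independently apart from those made to follow, which real genes do not. Python 3.11.15, NumPy 2.4.6, SciPy 1.17.1 and pandas 2.3.3 were used. 1 gene of the regulator list is not reported here.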

Additional observations from a re-analysis of the deposited data

How the results depend on the processing

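No paired analysis was possible because the columns carry no replicate number of a labelled group. Of the 9 genes, 0 were on-off with gaps of 2 and 1, with a pseudocount of 5, with totals made equal and without hippo30, and 1, RT1-A2, met a gap of 0.5. Counts of genes following a member that moved by more than 1.5 times were as follows. For RT1-A1 (4) the count was 0 with the first principal component taken out, 0 without hippo30 and 0 without hippo17. For RT1-S3 (74) it was 35 with totals made equal, 16 with the component taken out, 0 without hippo17, and by limma 6 without hippo17, 39 without hippo30 and 5 without both. For B2m (1005) it was 206 without hippo17, and by limma 165 without hippo17 and 124 without both. For Tapbp (498) it was 0 with totals made equal, 0 with the component taken out, 283 without hippo30, and by limma 318 without hippo30 and 218 without both. For Nlrc5 (0) it was 3 with a median of at least 50, 2 by limma and 4 by limma without hippo30. Since a permutation p cannot go below 1e-05, 1 to 3 genes alone cannot pass over all genes, and by limma RT1-A1 had 3 without hippo17 and 4 without hippo30. Median ratio rescaling gave the same counts as the deposited values, but it hardly changed r and so is no separate check. For Psmb8, the median r with the other members tested was 0.08882 before and 0.08883 after it. The number of member pairs past the threshold was 0 under every setting run. No r of a pair or of a named gene that had a call changed sign. With 36 columns of mixed groups and unknown depth, a weak relation between 2 genes may not have been detectable.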

Other observations

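The columns of RT1-A2 form 2 ranges, and the labels tie neither to a group of animals, so the values are given per column. In the lower range RT1-A2 was 235 in hippo16, 254 in hippo27, 254 in hippo3, 255 in hippo12, 281 in hippo10, 286 in hippo1, 306 in hippo31, 308 in hippo28, 326 in hippo24, 326 in hippo4, 328 in hippo36, 333 in hippo9, 334 in hippo23, 359 in hippo2 and 385 in hippo13. In the upper range it was 616 in hippo5, 619 in hippo26, 635 in hippo30, 645 in hippo25, 669 in hippo20, 670 in hippo18, 688 in hippo19, 694 in hippo6, 702 in hippo29, 711 in hippo22, 718 in hippo33, 740 in hippo7, 754 in hippo32, 766 in hippo11, 788 in hippo15, 794 in hippo34, 801 in hippo17, 825 in hippo35, 863 in hippo8, 872 in hippo21 and 893 in hippo14. The 2 ranges were set side by side only through the RT1-A1 and RT1-CE16 values and the overlaps with RT1-M6-2 and RT1-N1 given above. Other genes were not compared between them, and no difference was tested.

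The non-classical class I gene RT1-N1 also fell into 2 ranges. Its 14 lower columns were 0.502 in hippo2, 170 in hippo30, 181 in hippo31, 182 in hippo32, 185 in hippo24, 195 in hippo20, 198 in hippo13, 206 in hippo16, 212 in hippo6, 214 in hippo4, 218 in hippo27, 221 in hippo5, 223 in hippo10 and 224 in hippo35. Column hippo2 had the lowest value not only of RT1-N1 but also of RT1-S2 (10.8, against a median of 128) and RT1-T24-2 (7.61, against a median of 48.3), while its RT1-A1, RT1-A2, RT1-S3 and B2m values were 590.0, 359, 776 and 8790. RT1-M6-2 was in its upper range in 18 columns, which held all 14 lower columns of RT1-N1, from 159 in hippo2 to 349 in hippo22.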
